A study of Mus musculus with 3 samples.

Results

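Matrix metalloproteases and their inhibitors were followed in mouse bone marrow-derived dendritic cells through 10 genes, picked by symbol from the 34590 symbols of the table. They were the secreted proteases Mmp9, Mmp12, Mmp19 and Mmp27, the membrane-bound proteases Mmp14 and Mmp25, the inhibitors Timp1, Timp2 and Timp3, and the ADAM-like protease Adamdec1. The series asked how recombinant articulatin B chain (rATB) alters the mRNA profile of such cells. The rATB cells received 800 ng/ml of the protein for 48 h, the buffer cells received the buffer, and the control cells received nothing. For the buffer cells a dose of 1 ng/ml is labelled, without saying of what. In all 3 groups the cells were grown from marrow with granulocyte-macrophage colony-stimulating factor and were the floating cells taken on day 6. The strain, age and sex of the mice, and whether marrow was pooled, are not stated in the labels. With 1 library a group there is no replicate, so differences carry no test and the spread between cultures is unknown.

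Matrix metalloproteases are zinc enzymes that cut proteins of the extracellular matrix, and also cytokines, chemokines and receptors at the cell surface. They are made as inactive precursors, and tissue inhibitors of metalloproteinases (TIMPs) block the active enzymes by binding their active site. In dendritic cells and macrophages these enzymes are best known for allowing migration through basement membranes and tissue. An mRNA level says nothing of how much enzyme was activated or inhibited.

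The libraries held 15203139 reads for rATB, 16105080 for buffer and 17776492 for the control. Levels are given in units, where 1 unit is a read, after scaling, in every 1000000 of the control library, and stood for 15.7 to 17.8 reads. Exact 95% intervals in brackets after a ratio cover counting error alone. All 10 dendritic cell markers passed the filter of a mean of at least 1 unit, and their summed level was 10669 units in rATB cells, 13548 in buffer cells and 16257 in control cells. Of 10 macrophage and monocyte markers 9 passed, with sums of 3785, 4090.4 and 5302 units in the same order. Of 10 neutrophil markers 4 passed, with sums of 44.2, 44.6 and 58.0 units, and of 10 fibroblast and stromal markers 1 passed, with sums of 7.94, 6.62 and 8.33 units. Col1a2 and Col3a1, the defining collagens of fibroblasts, had 0 reads in every library. The sums of the 10 mast cell and basophil markers were 74.6, 70.8 and 67.4 units, and 5 of them had 0 reads. Nearly all of it was Kit, at 36.0, 31.4 and 26.7 units, and Gata2, at 37.5, 38.9 and 40.2. These were the only 2 of that list past the filter. Markers of B cells (5) and T cells (6) summed to at most 2.08 units in any library. Single markers differed in direction within a list. Of the 10 dendritic cell markers, 5 were highest and 5 lowest with rATB. Ccr7, a homing receptor of mature dendritic cells, stood at 1252, 723 and 621 units in the same order. Cd74, the largest part of the dendritic sum, stood at 6059, 8533 and 10811. Of the 9 macrophage and monocyte markers past the filter, 1 was highest and 5 were lowest with rATB. C1qa, a complement gene of macrophages, stood at 134, 258 and 386 units, and Mertk at 51.7, 43.4 and 44.2. Whether these markers had a part in the values below was not tested. In bulk RNA a smaller number of cells of one type and less RNA per cell cannot be told apart.

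The RefSeq table matched 7 of the 10 members, and Mmp9, Mmp19 and Adamdec1 were not among them. The promoters of 5 members are shown, Mmp12 because it was the most abundant of the 10, and Mmp14, Mmp25, Mmp27 and Timp1 because their counting intervals lay above both buffer and control in rATB cells. Each sequence is the 250 bases before a transcription start in RefSeq on GRCm38.p6, written 5′ to 3′ on the strand of the gene. Capitals mark matches on either strand to 5 motifs. The AP-1 motif was TGANTCA. The TATA box was TATAAA. The STAT motif was TTCNNNGAA. The ETS motif was AGGAAG. The GC box was GGGCGG.
Mmp12 (chr9:7347124-7347373, + strand): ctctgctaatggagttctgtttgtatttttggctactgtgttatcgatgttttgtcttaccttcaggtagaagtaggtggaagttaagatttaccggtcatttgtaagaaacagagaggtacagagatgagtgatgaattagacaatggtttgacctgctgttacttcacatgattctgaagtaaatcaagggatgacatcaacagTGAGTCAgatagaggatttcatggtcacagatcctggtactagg
Mmp14 (chr14:54431348-54431597, + strand): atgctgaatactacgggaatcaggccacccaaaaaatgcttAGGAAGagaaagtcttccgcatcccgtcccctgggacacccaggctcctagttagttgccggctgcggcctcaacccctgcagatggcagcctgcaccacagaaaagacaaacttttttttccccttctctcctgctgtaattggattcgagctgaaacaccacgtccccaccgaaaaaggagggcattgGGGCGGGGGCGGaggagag
Mmp25 (chr17:23645270-23645519, - strand): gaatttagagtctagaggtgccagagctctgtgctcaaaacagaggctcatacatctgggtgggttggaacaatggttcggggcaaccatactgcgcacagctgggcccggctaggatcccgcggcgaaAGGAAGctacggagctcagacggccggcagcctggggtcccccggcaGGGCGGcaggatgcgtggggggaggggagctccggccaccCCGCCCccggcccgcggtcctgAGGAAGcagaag
Mmp27 (chr9:7571146-7571395, + strand): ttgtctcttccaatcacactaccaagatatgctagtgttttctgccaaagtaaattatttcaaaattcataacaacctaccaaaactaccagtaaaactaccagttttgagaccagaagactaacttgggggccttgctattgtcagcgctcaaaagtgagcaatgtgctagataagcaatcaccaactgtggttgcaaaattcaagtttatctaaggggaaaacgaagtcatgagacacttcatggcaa
Timp1 (chrX:20869916-20870165, + strand): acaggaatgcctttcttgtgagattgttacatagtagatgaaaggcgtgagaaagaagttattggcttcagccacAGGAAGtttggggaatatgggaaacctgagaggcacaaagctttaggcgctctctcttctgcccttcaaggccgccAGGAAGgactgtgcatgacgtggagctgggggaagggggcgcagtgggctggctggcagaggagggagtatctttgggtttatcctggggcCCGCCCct
The start of Mmp12 shown is the second of 2 listed, and it carries an AP-1 match that begins 44 bases before the start. The first listed start of Mmp12, which is not shown, carries 1 ETS match that begins 87 bases before it. AP-1 matches were present in 6.75% of 32851 promoters of this length, and none was found at the other listed start of Mmp12 or in the other members listed. The Timp1 promoter held 2 ETS matches and 1 GC box, and the Mmp25 promoter 2 of each. The Mmp14 promoter held 1 ETS match and 2 GC boxes that adjoin. ETS matches were present in 29.5% of all promoters and GC boxes in 32.7%. The Mmp27 promoter held no match to any of the 5 motifs. STAT and TATA box matches, at 7.02% and 12.4% of all promoters, were found in none of the 8 listed starts of 7 members. No marked match overlapped another in the sequences shown. A match of letters describes the sequence and is not a bound site.

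Divided by the length of the principal transcript in GENCODE M21, the levels of the 10 genes fell into 4 tiers. Mmp12 stood alone at the top, at 1662 units per kilobase in rATB cells, 1807 in buffer cells and 1586 in control cells. Mmp14, Mmp9 and Mmp19 followed, with levels over the 3 libraries of 161 to 176, 149.8 to 166 and 84.1 to 153 units per kilobase. The ranges of neighbours among these 3 overlapped, and their order depended on the length used, since joining all exons put Mmp14 at 70.2 to 76.7 and below both others. Mmp25 ranged over 26.6 to 47.1 units per kilobase, Timp1 over 16.0 to 39.7 and Timp2 over 15.4 to 17.3, and the range of Timp1 overlapped both neighbours. The lowest tier held Mmp27 at 0.951 to 2.60, Timp3 at 1.08 to 1.74 and Adamdec1 at 0.408 to 0.911 units per kilobase. Without any length, Mmp12 was the tenth most abundant of all 12559 genes past the filter in rATB cells, the eighth in buffer cells and the tenth in control cells. The 10 genes together took 0.804% of the reads in rATB cells, 0.847% in buffer cells and 0.714% in control cells.

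**Figure D1:**
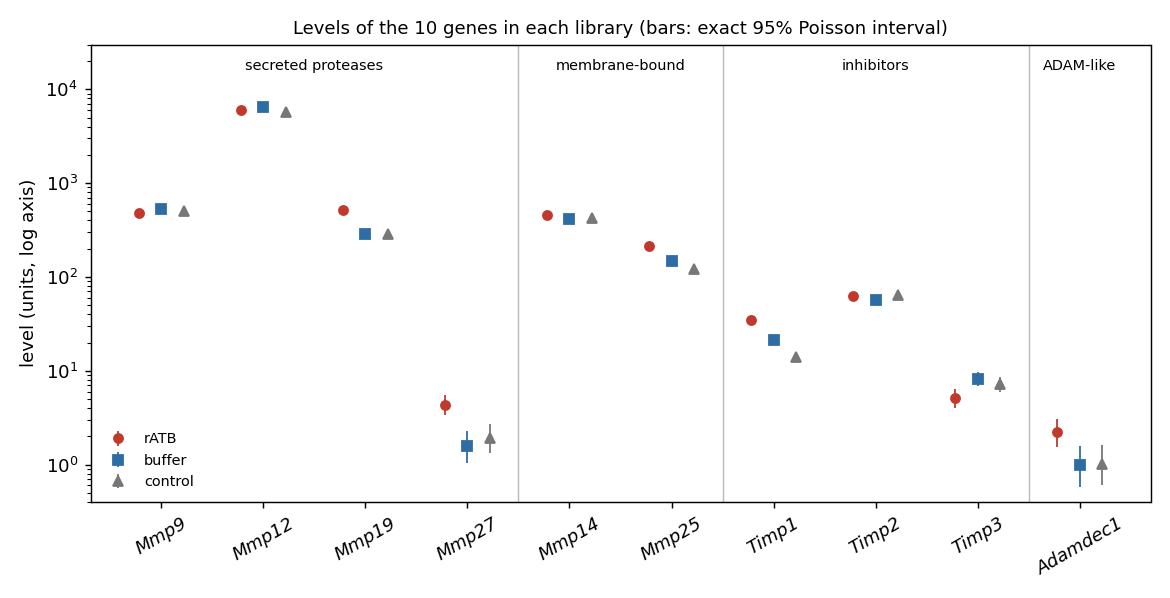
Levels of the 10 genes in units on a log axis, grouped by role, with rATB, buffer and control from left to right and exact 95% Poisson intervals as bars. Mmp12 lies near 6000 units in every library, and Mmp19, Mmp25, Mmp27, Timp1 and Adamdec1 are visibly highest with rATB.

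Among the secreted proteases, Mmp19 and the rare Mmp27 were higher with rATB than in both other libraries, while Mmp12 and Mmp9, both abundant, differed by little. Mmp19 (ENSMUSG00000025355), a broad-specificity protease that cuts basement membrane proteins, stood at 520.2 units in rATB cells, 290.4 in buffer cells and 286 in control cells. The rATB library was high and the 2 others lay close together. The ratio of rATB to buffer was 1.79 (interval 1.73 to 1.86), the ratio of rATB to control 1.82 (1.75 to 1.88), and that of buffer to control 1.01 (0.975 to 1.06). On the scale of log2(level + 1), the rATB minus buffer difference was 0.84, and 178 of the 12559 genes had a larger one. The exons of Mmp19 share 1001 bases with genes on the other strand, and the library kit does not record strand. One of those genes, Tmem198b, stood at 33.8 units in rATB cells, 24.8 in buffer cells and 26.7 in control cells. With its reads added to those of Mmp19, the ratio of rATB to buffer was 1.76 (1.70 to 1.82).

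Mmp12 (ENSMUSG00000049723), the macrophage elastase, stood at 5995 units in rATB cells, 6519 in buffer cells and 5719 in control cells. The rATB library lay between the 2 others, with a ratio to buffer of 0.920 (0.912 to 0.928) and to the control of 1.05 (1.04 to 1.06). Buffer exceeded the control by a ratio of 1.14 (1.13 to 1.15), so buffer and control differed by more than either did from rATB. Mmp9 (ENSMUSG00000017737), a gelatinase that cuts type IV collagen, stood at 476 units in rATB cells, 527 in buffer cells and 501 in control cells. It was lowest with rATB, with a ratio to buffer of 0.902 (0.875 to 0.930) and to the control of 0.949 (0.921 to 0.979). Its difference from the control in log2(level + 1) was -0.075, and -0.029 to -0.019 under 3 other scalings of the libraries. The bracketed interval does not cover that dependence on the scaling, and each of those scalings carries its upper bound against the control past 1.

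Mmp27 (ENSMUSG00000070323), a little-studied member of the family, was rare, with 68 reads in rATB cells, 27 in buffer cells and 34 in control cells. These counts gave 4.32, 1.58 and 1.91 units in the same order, and the rATB library was high. The ratio of rATB to buffer was 2.73 (1.73 to 4.44) and of rATB to control 2.26 (1.48 to 3.52), while buffer and control could not be told apart at this depth (ratio 0.827, 0.480 to 1.41). On the scale of log2(level + 1) its rATB minus buffer difference was 1.04, past the 2-fold rule of a difference of at least 1, and that from the control was 0.87, which was not.

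**Figure D2:**
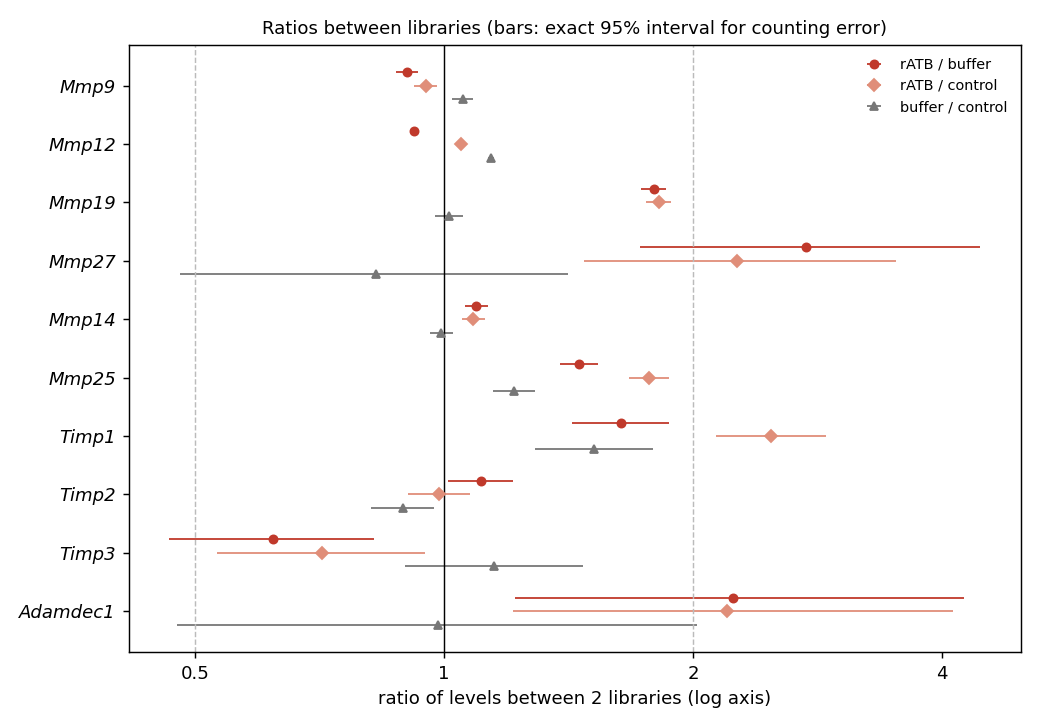
Ratios of the level of each gene between 2 libraries on a log axis, with exact 95% intervals for counting error as bars and dashed lines at 0.5 and 2. For Mmp19 both ratios of rATB lie near 1.8 and that of buffer to control near 1, while for Timp1 the ratio of buffer to control is 1.52.

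The membrane-bound proteases were both highest with rATB, Mmp25 by more than Mmp14. Mmp25 (ENSMUSG00000023903), which is held to the membrane by a lipid anchor and is known from human neutrophils, stood at 213 units in rATB cells, 146 in buffer cells and 121 in control cells. The 3 libraries lay apart in that order. The ratio of rATB to buffer was 1.46 (1.38 to 1.53), of rATB to control 1.77 (1.67 to 1.87) and of buffer to control 1.21 (1.15 to 1.29). The buffer minus control difference of 0.28 was exceeded by 557 of 12559 genes. Of the 10 neutrophil markers, 4 passed the filter, and the whole list summed to 44.2 units in rATB cells, 44.6 in buffer cells and 58.0 in control cells. S100a8 stood at 27.1, 24.9 and 22.6 units in the same order and S100a9 at 9.60, 10.48 and 17.1, while Ngp stood at 2.92, 4.98 and 11.2 and Ltf at 2.86, 2.46 and 5.34. The granule enzyme gene Mpo had at most 1 read and the surface marker Ly6g at most 6 in any library. The part of such cells in the Mmp25 values was not tested. Mmp14 (ENSMUSG00000000957), which spans the membrane and activates pro-Mmp2 at the cell surface, stood at 457 units in rATB cells, 418 in buffer cells and 422 in control cells. Its ratio of rATB to buffer was 1.09 (1.06 to 1.13) and of rATB to control 1.09 (1.05 to 1.12), and buffer and control did not differ beyond counting error (0.992, 0.960 to 1.02).

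The 3 inhibitors did not share a direction. Timp1 (ENSMUSG00000001131), the soluble inhibitor that also binds the precursor of Mmp9, stood at 35.0 units in rATB cells, 21.4 in buffer cells and 14.1 in control cells. The rATB library was highest, but buffer was also well above the control. Its rATB to buffer ratio was 1.63 (1.43 to 1.87), the buffer to control ratio 1.52 (1.29 to 1.79) and the rATB to control ratio 2.48 (2.13 to 2.89). On the scale of log2(level + 1) the rATB library differed from the control by 1.25, past the 2-fold rule, and from buffer by 0.68, which was not past it. The buffer minus control difference was 0.57, and 49 of the 12559 genes had a larger one.

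Timp2 (ENSMUSG00000017466), which binds Mmp14 at the cell surface, stood at 63.4 units in rATB cells, 57.3 in buffer cells and 64.3 in control cells. The rATB library was near the control (ratio 0.985, 0.904 to 1.07), and its ratio to buffer was 1.11 (1.01 to 1.21). The sign of the small difference from the control turned under 3 other scalings of the libraries. Scaling each library to its own total lowers rATB minus buffer by 0.035 in log2. That carries the lower bound of the ratio of rATB to buffer under 1.

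Timp3 (ENSMUSG00000020044), an inhibitor bound to the matrix that also blocks Adam17, had 80 reads in rATB cells, 140 in buffer cells and 127 in control cells. The levels were 5.08, 8.20 and 7.14 units in the same order, lowest with rATB. The rATB to buffer ratio was 0.620 (0.465 to 0.822), and buffer and control did not differ beyond counting error (1.15, 0.896 to 1.47). Of the 8144 exon bases of Timp3, 1733 are shared with Syn3 on the other strand, and reads in the shared bases cannot be told apart. Syn3 was highest with rATB, at 8.01 units in rATB cells, 4.57 in buffer cells and 3.77 in control cells. Reads of both genes together gave 13.1 units in rATB cells, 12.8 in buffer cells and 10.9 in control cells, a ratio of rATB to buffer of 1.03 (0.844 to 1.25). Reads in the shared bases were not counted apart, and their part in the Timp3 values was not tested.

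Adamdec1 (ENSMUSG00000022057), a secreted relative of the ADAM proteases known from human dendritic cells and macrophages, was the rarest member, with 35 reads in rATB cells, 17 in buffer cells and 18 in control cells. The levels were 2.22, 0.995 and 1.01 units in the same order, so it passed the filter narrowly. Its rATB to buffer ratio was 2.23 (1.22 to 4.25), the ratio to the control 2.20 (1.21 to 4.12), and the wide intervals reflect the few reads. Its difference of 0.69 on the scale of log2(level + 1) was under the 2-fold rule, and with a pseudocount of 0.1 units it was 1.09.

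Summed by role, the secreted proteases stood at 6995 units in rATB cells, 7338 in buffer cells and 6508 in control cells, most of it Mmp12. Without Mmp12, the reads of Mmp9, Mmp19 and Mmp27 together were higher with rATB than the 819 units in buffer cells and 789 in control cells, with ratios of 1.22 (1.19 to 1.25) and 1.27 (1.24 to 1.30), while Mmp9 alone was lower with rATB. The membrane-bound pair summed to 671, 565 and 542 units in the same order, a rATB to buffer ratio of 1.19 (1.16 to 1.22). The 3 inhibitors summed to 103, 86.9 and 85.6 units in the same order, and their rATB to buffer ratio was 1.19 (1.11 to 1.28). Between buffer and control the inhibitors together did not differ beyond counting error (1.02, 0.945 to 1.09), although Timp1 was higher in buffer cells and Timp2 lower. The Timp2 difference for that pair ranged from -0.17 to -0.081 in log2(level + 1) over the settings tried, so its size depended on the scaling. The 3 other scalings carry the upper bound of its buffer to control ratio, 0.971, past 1.

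All 10 members passed the filter, and 1 of them, Mmp27, was higher with rATB than with buffer by the 2-fold rule, against 0.900% of all genes, and 0 were lower, against 0.669%. Against the control 1 member, Timp1, was higher, where 0.948% of all genes were, and 0 were lower, where 0.884% were. Between buffer and control no member was past the rule, and over all genes 0% were higher and 0.0557% lower. The median difference of the members was 0.34 for rATB minus buffer and 0.40 for rATB minus control, against -0.0024 and -0.056 over all 12559 genes, and 0.047 for buffer minus control against -0.052. With a filter at 5 units, which drops the rare Mmp27 and Adamdec1, the members' medians were 0.14 for rATB minus buffer and 0.093 for rATB minus control, and 0 members were past the 2-fold rule against buffer. By counting intervals, 7 members were above buffer (19.6% of all genes) and 3 below (20%), while 7 were above the control (14.5%) and 2 below (27.3%). Above both were 6 members, namely Mmp14, Mmp19, Mmp25, Mmp27, Timp1 and Adamdec1, where 11.4% of all genes were. Below both were Mmp9 and Timp3, where 15.4% were. For Mmp9 the call against the control holds under the deposited scaling alone, since 3 other scalings carry its upper bound of 0.979 past 1. Buffer was above the control in 4 members (5.61% of all genes) and below in 1 (21.9%). These calls and shares by counting intervals are for the deposited scaling alone and were not repeated under the 3 others. Those raised rATB minus control by 0.046 to 0.056 and buffer minus control by 0.051 to 0.085 in log2. Over all genes the buffer minus control median was then -0.0040 to 0.028, so calls and shares depend on the scaling. Such counts grow with abundance because intervals narrow, and both rATB comparisons share the rATB library. The members were chosen with earlier results of these data known, so these counts are descriptions.

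**Figure D3:**
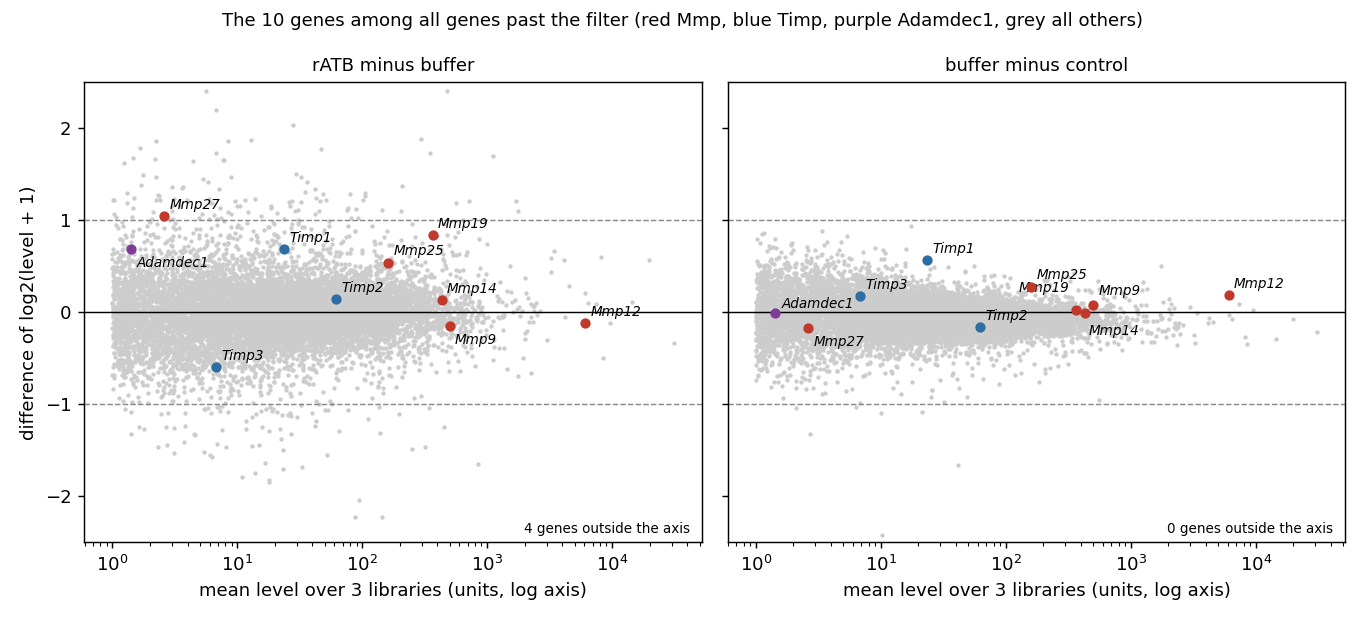
Difference of log2(level + 1) against the mean level in units for all 12559 genes past the filter, for rATB minus buffer on the left and buffer minus control on the right, with the 10 genes in colour and dashed lines at -1 and 1. Mmp19 lies at 0.84 on the left and 0.021 on the right, Timp1 at 0.68 and 0.57, and 4 genes on the left lie outside the axis.

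Ratios of inhibitor reads to protease reads within a library do not depend on the scaling between libraries. Reads are not divided by length here, so a ratio is compared only between libraries. For each 100 reads of Mmp9 there were 7.36 reads of Timp1 in rATB cells, 4.06 in buffer cells and 2.82 in control cells. The ratio of rATB to buffer was 1.81 (interval 1.58 to 2.08), of rATB to control 2.61 (2.24 to 3.05) and of buffer to control 1.44 (1.22 to 1.70). Timp1 relative to Mmp12 was likewise highest with rATB, at 1.78 times buffer (1.55 to 2.03) and 2.37 times the control (2.03 to 2.76). Relative to Mmp19, Timp1 with rATB did not differ from buffer beyond counting error (0.912, 0.794 to 1.05), while both exceeded the control. Timp2 relative to Mmp14, the pair that meets at the cell surface, stood at 13.9 reads per 100 in rATB cells, 13.7 in buffer cells and 15.3 in control cells, a ratio of rATB to buffer of 1.01 (0.920 to 1.11). Timp2 relative to Mmp9 was 1.23 times buffer with rATB (1.12 to 1.35) and 1.04 times the control (0.947 to 1.14). Timp3 relative to Mmp14 and Mmp9 was 0.567 (0.425 to 0.753) and 0.688 (0.515 to 0.913) times buffer. Against the control these ratios were 0.656 (0.489 to 0.876) and 0.750 (0.558 to 1.001), the latter within counting error. The part of reads shared with Syn3 was not tested here either.

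**Figure D4:**
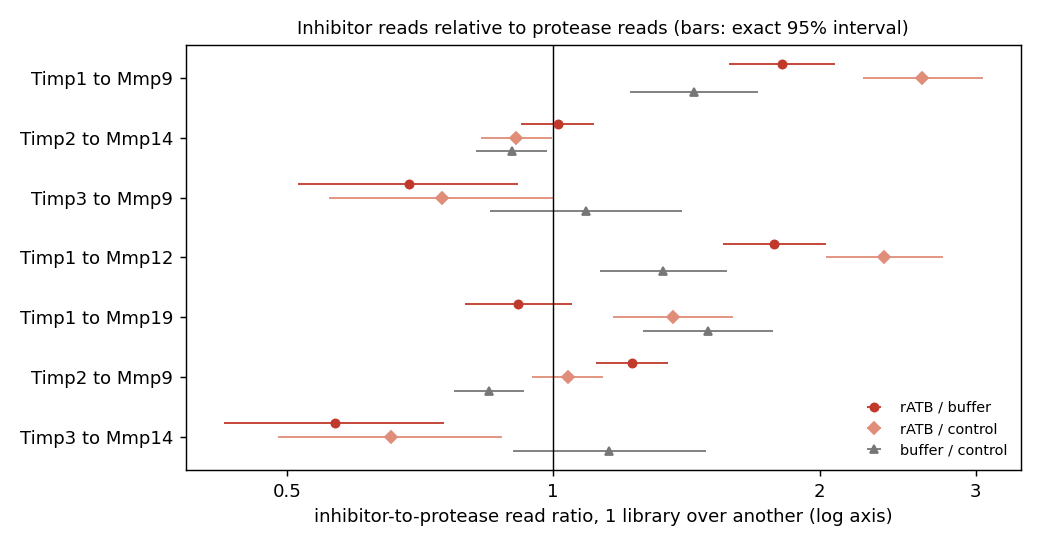
Ratio of inhibitor reads to protease reads in 1 library over the same ratio in another, for 7 pairs of genes on a log axis, with exact 95% intervals as bars. Timp1 relative to Mmp9 and to Mmp12 lies above 1 in all 3 comparisons, and Timp2 relative to Mmp14 lies close to 1 for rATB over buffer.

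The other genes of the family were mostly below the filter. Of 18 listed, 4 passed the filter and 4 had 0 reads in every library, among them Mmp3 and Timp4. Mmp8, the neutrophil collagenase, was abundant, at 2275 units in rATB cells, 1750 in buffer cells and 1988 in control cells. Its ratio of rATB to buffer was 1.30 (1.28 to 1.32). The neutrophil markers summed to at most 58.0 units in any library, and the part of neutrophils in the Mmp8 values was not tested. Mmp2, a gelatinase activated by Mmp14, stood at 38.8, 42.6 and 48.6 units in the same order, and its rATB to buffer ratio of 0.911 (0.817 to 1.02) was within counting error. Mmp13, a collagenase, and Mmp23 were the other 2 and are named after their values were seen. Mmp13 stood at 21.4 units in rATB cells, 20.96 in buffer cells and 28.7 in control cells, and Mmp23 at 9.53, 17.4 and 13.3. The family cluster on chromosome 9 showed how uneven the levels of neighbours were. Of its 10 genes in RefSeq, Mmp12 and Mmp8 had 94330 and 35791 reads with rATB, Mmp13 had 337 and Mmp27 had 68. The other 6 had at most 2 reads in any library, which includes Mmp1b, whose exons overlap those of Mmp12 by 157 bases.

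In the wider proteolysis lists 4 genes were past the 2-fold rule against buffer or control, and 3 of them code for matrix proteins. Over 5 lists, 48 of 94 genes passed the filter. Of these, 3 were higher with rATB than with buffer, against 0.900% of all genes, and 0 were lower, against 0.669%. Against the control 3 were higher, where 0.948% of all genes were, and 0 were lower, where 0.884% were. Between buffer and control 0 were past the rule, where 0% of all genes were higher and 0.0557% lower. Lcn2 and Spp1 were past the rule in both comparisons, Col4a1 against buffer and Lama5 against the control. These genes were listed with earlier results known, as Lcn2 was already seen to be high.

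Over the 11 matrix substrates past the filter, the median difference was 0.19 for rATB minus buffer and 0.12 for rATB minus control. Fn1, fibronectin, was the most abundant and nearly level, at 6650.5 units in rATB cells, 6210 in buffer cells and 6507 in control cells. Spp1, the matrix protein osteopontin, stood at 2943 units in rATB cells, 1366 in buffer cells and 964 in control cells. Its ratio of rATB to buffer was 2.15 (2.12 to 2.19), and buffer also exceeded the control, by 1.42 (1.39 to 1.45). Lama5, a laminin chain of basement membranes, stood at 42.6 units in rATB cells, 21.4 in buffer cells and 17.8 in control cells. Col4a1, a type IV collagen chain, stood at 5.34, 1.70 and 2.31 units in the same order, from 84, 29 and 41 reads. Col4a2, the other listed chain of that collagen, is named after its values were seen and stood at 5.53, 5.56 and 7.59. Its rATB to buffer ratio was 0.994 (0.735 to 1.34) and its rATB to control ratio 0.728 (0.550 to 0.960).

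Over 16 regulators and partners, these medians were 0.20 and 0.037. Lcn2, a lipocalin that forms a complex with Mmp9, stood at 71.2 units in rATB cells, 10.4 in buffer cells and 11.9 in control cells, a ratio of rATB to buffer of 6.84 (5.83 to 8.05). The most abundant were Thbs1, thrombospondin 1, at 2309 units in rATB cells, 2360 in buffer cells and 2777 in control cells, and Sdc1, a shed surface proteoglycan, at 943, 710.3 and 857. In the plasminogen system, which activates several matrix metalloproteases, the medians were 0.11 and 0.054 over 5 genes, with none past the 2-fold rule. Serpinb2 and Anxa2 were the most abundant, at 321 and 451 units in rATB cells, 290.1 and 396 in buffer cells, and 292 and 418 in control cells.

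ADAM and ADAMTS proteases had medians of -0.21 and -0.23 over 12 genes, with none past the 2-fold rule. Adam17, the enzyme that sheds tumour necrosis factor and a target of Timp3, stood at 216 units in rATB cells, 304 in buffer cells and 327 in control cells. The rATB to buffer ratio was 0.709 (0.679 to 0.740). Adam8, a leukocyte surface protease and the most abundant of the list, stood at 761 units in rATB cells, 676 in buffer cells and 713 in control cells.

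**Figure D5:**
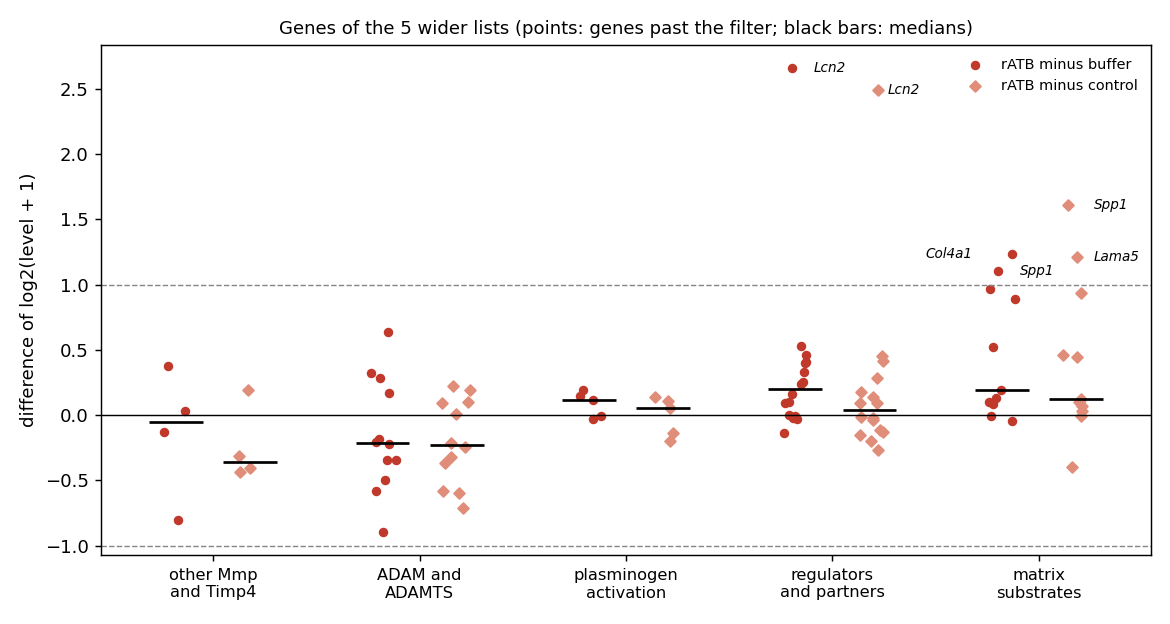
Difference of log2(level + 1) for genes past the filter in 5 lists, as rATB minus buffer (circles) and rATB minus control (diamonds), with medians as black bars and dashed lines at -1 and 1. Lcn2 and Spp1 are past 1 in both comparisons, and most ADAM and ADAMTS genes lie below 0.

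Among 7099 genes averaging 20 or more units, the 3 whose pair of differences (rATB minus buffer, buffer minus control) lay nearest to that of Mmp19 were Gm11428, Fblim1 and Crem. Gm11428 stood at 674 units in rATB cells, 376 in buffer cells and 371 in control cells. The nearest to Timp1 were Npr1, Jag1 and Slc27a3, at distances of 0.17 to 0.29 on the log2 scale, against at most 0.016 for the neighbours of Mmp19. Npr1 stood at 114 units in rATB cells, 72.7 in buffer cells and 54.7 in control cells. These distances rest on 3 libraries and describe the order of their levels alone.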

How the data were processed

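Messenger RNA of 3 libraries, 1 each for rATB, buffer and control, was analysed. The submitters' processing notes name TopHat2 2.0.13, a read aligner. They also name GRCh37, a human build, beside mouse identifiers, so the build behind the table is unclear. Neither the read counter nor the scaling is stated there. Per the file headers, the authors deposited log2 values for 37991 genes. On the linear scale, 100% of the values above 0 were whole multiples of the smallest (tolerance 1e-06), so they were read as read counts times a column factor of 1.13 (rATB), 1.04 (buffer) and 1 (control). Spreadsheet errors, 53.1% to 54.0% of cells, were taken as 0. Damaged symbols (25) were restored and entries of 1 symbol summed. The 2-fold rule is a difference of at least 1 in log2(level + 1) among genes averaging 1 unit or more. Intervals are exact Poisson for levels and exact conditional for ratios, with scipy 1.17.1 in Python 3.11.15. Only the intervals for ratios of levels between libraries were checked, on simulated Poisson counts of genes averaging 5 units or more. Such counts follow the model that the interval assumes, so this checks the code alone. Intervals of levels and of inhibitor-to-protease ratios were not checked so. Reads without molecular identifiers are not independent molecules, so intervals cover counting error only. Exon lengths and overlaps came from GENCODE M21 and promoters from RefSeq on GRCm38.p6.

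Members, lists and pairs of genes were chosen with earlier results of these data known. Named besides the members were list genes past the 2-fold rule or among the 2 most abundant of their list, and the 3 genes nearest to Mmp19 and Timp1. Of 155 entries in the lists and marker sets, 154 were matched. The result of 1 listed gene is not reported here and the gene is left out of its list. Proteins were not analysed here.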

Additional observations from a re-analysis of the deposited data

How the results depend on the processing

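Of 204 member differences recomputed under 7 alternatives, 9 turned in sign, with values of 0.013 to 0.073 after the turn. These were Timp2 against the control, and Mmp14 and Adamdec1 for buffer against control, under the 3 other scalings. A change of filter or pseudocount, or keeping entries of 1 symbol apart, could not turn the sign of a member. The 204 therefore include many values whose sign was fixed in advance, and only the 3 other scalings could turn one. Under the same scalings Mmp9 against the control kept its sign but moved from -0.075 to between -0.029 and -0.019. With a pseudocount of 0.1, members higher by 2-fold numbered 2 against buffer and 3 against the control, genes higher and lower numbered 183 and 175 against buffer, 188 and 203 against the control, and 20 and 37 for buffer against control, and 1 gene of the wider lists was lower against buffer and 1 against the control. With a filter at 5 units, 0 members were higher than with buffer, the members' medians were 0.14 against buffer and 0.093 against the control, and 75 genes were higher than with buffer and 78 than in the control, since rare genes such as Mmp27 and Adamdec1 left. With no filter, and with each library scaled to its own total, 1 gene was higher with buffer than in the control, against 0. Median-of-ratios scaling, trimmed mean scaling and keeping entries of 1 symbol apart moved none of these counts by more than 1.5 times. With 1 read added to every count, all 21 inhibitor-to-protease ratios stayed within their intervals. This was fixed in advance, since the rarest gene of the pairs, Timp3, had at least 80 reads in every library. Adding the reads of overlapping genes was chosen after seeing the data, and it put the rATB minus buffer difference of Timp3 at 0.034 and that of Mmp19 at 0.81. Depth limits Mmp27, Timp3 and Adamdec1, and the limit that a count of 0 allows, taken as 3 reads, is 0.191 units in rATB cells. No paired analysis was possible because each group has 1 library, and no library could be left out for the same reason.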
